A study of Bos taurus with 48 samples.

Results

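The 8 genes described here encode enzymes and regulators of glycogen metabolism in muscle: PYGM, PHKA1, PHKG1, PPP1R3C, GYS1, GBE1, UGP2 and PGM1. They were taken from a fixed list of 8 symbols, each matched to the array's own gene name or to the symbol that the probe description gives in parentheses. All 8 were found, on 9 probes, and all 8 passed the filter on dim probes together with the rest of the 14644 genes tested. Expression was measured by 48 2-colour Agilent arrays in biopsies of the longissimus thoracis et lumborum (LTL), the large muscle of the bovine loin. Each developmental array carried RNA of 1 Piedmontese × Hereford and 1 Wagyu × Hereford animal at 60, 135 or 195 days of gestation, at birth, or at 3, 7, 12, 20, 25 or 30 months of age. Each diet array carried RNA of 1 adult Belmont Red animal on a weight loss diet and 1 on a weight growth diet, at time 0, 1 or 2 of an experiment of nutritional deprivation and re-alimentation; the labels do not say how long after its start each time lay. There were 3 arrays for each time up to birth and 4 for each later age and each diet time. The 3 arrays at 60 days held the same 2 animals and counted as 1 sample. At 12 months the 4 arrays held 2 Wagyu cross animals, of which 1 was on 3 arrays, at 135 days 1 Wagyu cross animal and at 195 days 1 Piedmontese cross animal was on 2 arrays; these arrays had different partners and were not averaged, so they are not fully independent. In the diet experiment the weight loss arm had 4 animals at time 0, 3 at time 1 and 2 at time 2, against 4, 4 and 2 on the growth diet. Each cross and each arm was labelled with Cy3 on some arrays and with Cy5 on others. The labels name the cross by its sire breed only.

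Glycogen is the branched glucose store of muscle. For its synthesis PGM1 interconverts glucose 6-phosphate and glucose 1-phosphate, UGP2 makes UDP-glucose, GYS1, the muscle glycogen synthase, lengthens the chains and GBE1 adds the branches. For its breakdown PYGM, the muscle glycogen phosphorylase, releases glucose 1-phosphate. PYGM is activated by phosphorylase kinase, of which PHKA1 is the muscle form of the regulatory alpha subunit and PHKG1 the muscle form of the catalytic gamma subunit. PPP1R3C carries protein phosphatase 1 to glycogen, where the phosphatase favours synthesis. Loss of PYGM in humans causes McArdle disease, in which muscle cannot draw on its glycogen.

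Because the values are those of single 60-base probes, the first 30 bases of those on which the results below turn are given as the array files hold them, 5′ to 3′; those of PYGM, PHKA1 and PHKG1 stand for the phosphorylase and its kinase, and those of GYS1 and GBE1 are pairs that can be compared.
PYGM: taaccctctccttggaacccccatttatca
PHKA1: ttgtgtaaatgagtggtgggtgcattggga
PHKG1: gggcaagttcaaggtgatctgcctgacggt
GYS1, bright probe: ggagcggaaggcagaaggggtgtgattgaa
GYS1, dim probe: tgggtggctgaattcccaagcctcggaagc
GBE1: atcttggtagatgctagtatcttcatttct
GBE1, further probe: gggatagtcggttatttgcctacgccaggt
The dim GYS1 probe was well above background in 62 of 96 channels, and at 60 days of gestation in 0 of 6. Each of the other 8 probes of the list was well above background in 96 of 96 channels, the further GBE1 probe in 92 of 96, and none had a saturated spot. The further GBE1 probe is not matched by the list of symbols but is tied to GBE1 by its RefSeq gene number, and it is used only for comparison. Its array means correlated with those of the GBE1 probe at r = 0.92 over 48 arrays, whereas the correlation between both GYS1 probes was 0.57. These correlations are across arrays that share animals and are given as a description.

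The share of spots well above background ranged from 49.9% to 72.8% in the Cy3 channels and from 55.1% to 76.4% in the Cy5 channels. The arrays of a time point correlated closely, with a median correlation of at least 0.976 over probes. One animal stood apart. The 135-day Piedmontese animal of replicate 2 differed from the mean of the other 135-day animals by 0.83 (root mean square over genes, log2 scale), against 0.30 to 0.31 for the other 4 animals of that age. The mean log2 intensity of the 6 skeletal muscle markers (CKM, ACTA1, DES, MB, TNNT3 and TNNT1) was 10.30 in it and between 14.61 and 15.20 in the others, so the muscle label was not borne out for this biopsy to the same degree. The 4 adipocyte markers were at 13.77 in it and at 8.16 to 9.52 in the others, and the 5 connective tissue markers at 15.27 and at 14.92 to 15.06. PYGM was at 8.89 in this animal and at 11.57 to 12.20 in the others. The main results of the 8 genes that use 135-day arrays are therefore given with and without its array. Those of further lists, markers and correlations are given only with it. In a bulk biopsy, fewer cells of a type and less RNA per cell cannot be told apart.

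All 8 genes were higher after birth than before it. On the scale of log2 intensity, with dye effects removed and 1 value for each animal at each time, PYGM lay between 8.83 and 14.50 in the fetal samples (median 12.08, n = 12; 2 samples of 195 days whose labels differ by a letter were counted as separate animals) and between 15.79 and 17.15 from 3 to 30 months (median 16.59, n = 46 from animals sampled repeatedly). PHKA1 lay between 9.59 and 10.74 (median 9.99) in the fetal samples and between 14.12 and 15.84 (median 15.03) afterwards. The fetal and post-natal ranges did not overlap for PYGM, PHKA1, PHKG1 and GYS1. How many of all genes had separate ranges was not counted, and 76.1% of all genes were called between these periods in the fit below. The ranges overlapped for GBE1, UGP2, PGM1 and PPP1R3C, whose highest fetal values exceeded the lowest post-natal ones.

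In the limma fit over all genes the mean of the 6 post-natal ages exceeded that of the 3 fetal ages by 5.14 ± 0.16 (SE, log2) for PYGM, which is 35.2-fold, and by 4.93 ± 0.09 for PHKA1, 30.6-fold. Smaller rises were found for PHKG1 at 2.71 ± 0.14, PPP1R3C at 2.11 ± 0.16, PGM1 at 2.04 ± 0.10, GYS1 at 1.48 ± 0.06, GBE1 at 1.45 ± 0.13 and UGP2 at 1.26 ± 0.15. The Benjamini-Hochberg adjusted p was at most 6.02e-09 among them. Thus 8 of 8 members rose, where 39.2% of all genes tested were higher by the same rule and 36.9% were lower. The median difference of the 8 genes was 2.07, against 0.04 over all genes. Without the 135-day array of the animal that stood apart the 8 differences were between 1.19 and 4.98 and all 8 were called. Fetal and post-natal arrays lay on different slides, so slide and this contrast cannot be told apart.

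The size of the GYS1 change depended on the probe. The bright probe rose by 2.74 (adjusted p = 8.90e-21) and the dim one by 0.22 (adjusted p = 0.00369), and the value of 1.48 is their mean. The further GBE1 probe rose by 0.99 (adjusted p = 7.65e-08), in the same direction as the GBE1 probe.

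**Figure D1:**
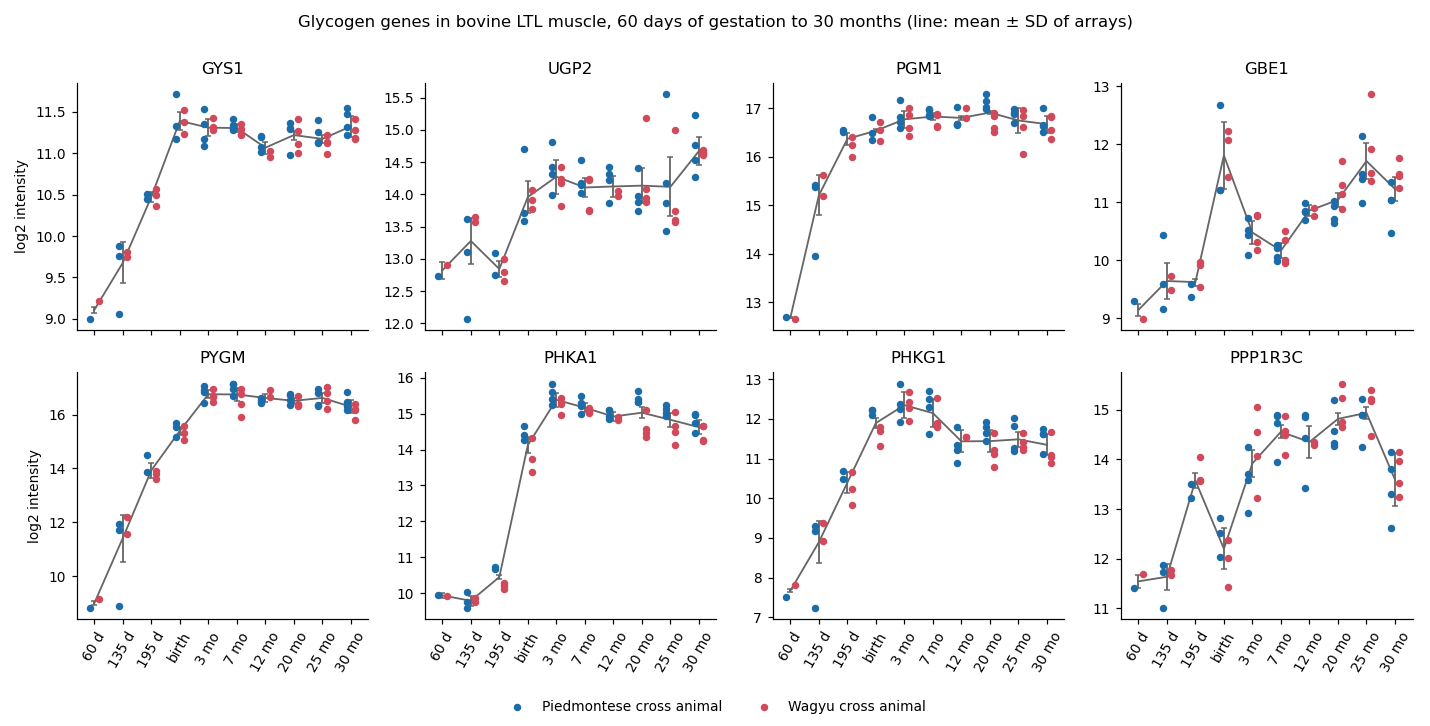
Level of each of the 8 genes (log2 intensity, own scale for each gene) at 10 times from 60 days (d) of gestation to 30 months (mo); points are animals after removal of the dye effect, coloured by cross, and the line gives the mean ± SD of the 3 or 4 arrays. PYGM climbs at each step up to 3 months, PHKA1 stays near 10 until 195 days and is at 14.13 at birth, and PPP1R3C and GBE1 move in opposite directions around birth.

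The genes of glycogen breakdown reached their post-natal level along different courses. The array means of PYGM were 9.0 ± 0.07 at 60 days (SD over 3 arrays of the same animals), 11.42 ± 0.87 at 135 days, 13.93 ± 0.27 at 195 days, 15.39 ± 0.15 at birth and 16.75 ± 0.16 at 3 months. PYGM was called higher at each of these steps. PHKA1 was level early, at 9.94 ± 0.08 at 60 days and 9.79 ± 0.14 at 135 days, and it was at 10.45 ± 0.07 at 195 days. At birth it was at 14.13 ± 0.21, a rise of 3.68 ± 0.14 (SE) or 12.8-fold from 195 days (adjusted p = 2.31e-18). The 6 newborn animals had PHKA1 values from 13.37 to 14.67, all above the highest fetal value of 10.74. PHKG1 rose by 1.22 from 60 to 135 days, by 1.5 to 195 days and by 1.5 to birth.

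Among the genes of synthesis, PGM1 made most of its change early. It rose by 2.52 ± 0.21 from 60 to 135 days (adjusted p = 6.94e-10) and by 1.16 ± 0.15 to 195 days, and differed by 0.17 between 195 days and birth (adjusted p = 0.336, 95% confidence interval −0.14 to 0.47). GYS1 rose at each of the same 3 steps, by 0.57, 0.80 and 0.92 as the mean of both probes; at its first step the dim probe had an adjusted p of 0.581 and at the second of 0.199. UGP2 and GBE1, by contrast, were not called at either fetal step and rose between 195 days and birth, UGP2 by 1.12 ± 0.23 (adjusted p = 1.03e-04) and GBE1 by 2.19 ± 0.20 (adjusted p = 1.61e-10). At the further GBE1 probe the rise to birth was 1.24.

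PPP1R3C, the glycogen-targeting subunit, took a course of its own. Its array means were 11.55 ± 0.12 at 60 days, 11.64 ± 0.27 at 135 days and 13.57 ± 0.16 at 195 days, then 12.20 ± 0.41 at birth and 13.92 ± 0.27 at 3 months. It rose by 1.94 ± 0.24 from 135 to 195 days, fell by 1.37 ± 0.24 to birth and rose by 1.72 ± 0.23 to 3 months, with adjusted p of at most 1.60e-05 at each step. With arrays scaled by their medians alone these were 1.63, −0.84 and 1.39 and none was called (adjusted p of 0.266, 0.327 and 0.195). The newborn animals lay between 11.43 and 12.83. GBE1, the branching enzyme, went the other way at the last of these steps and fell by 1.33 ± 0.19 from birth to 3 months (adjusted p = 2.15e-06), also at its further probe (a fall of 0.50, adjusted p = 0.0382).

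**Figure D2:**
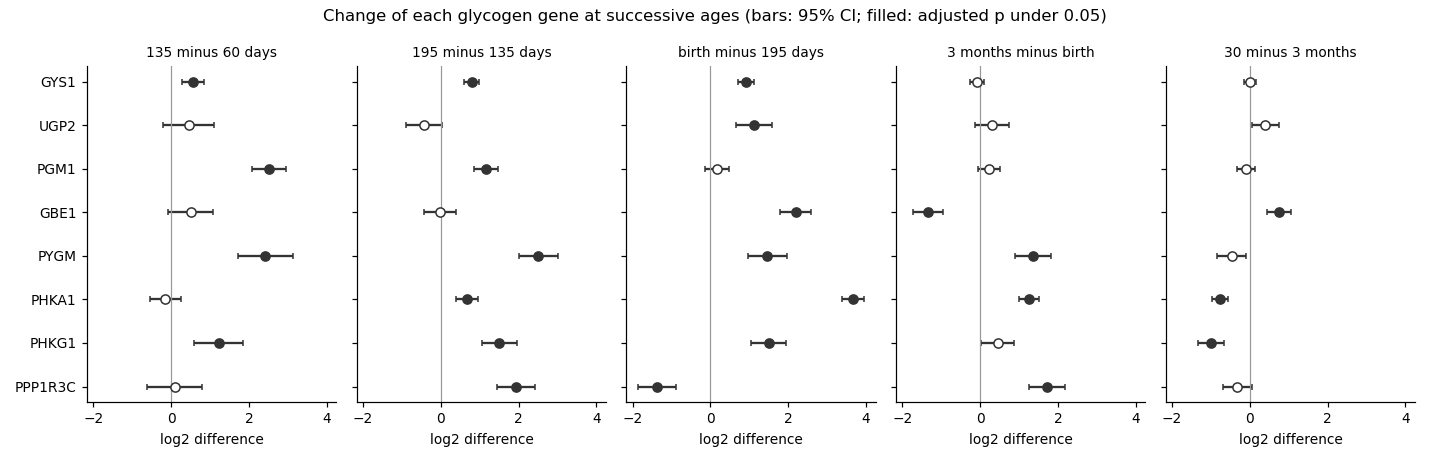
Differences in log2 intensity between successive times for the 8 genes, with 95% confidence intervals from the limma fit; filled points passed an adjusted p of 0.05 over all genes. PHKA1 has its largest difference, 3.68, between 195 days and birth, where PPP1R3C falls by 1.37.

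Counted by step, 4 of the 8 genes rose from 60 to 135 days, where 6.21% of all genes were called higher, and 6 of 8 rose from 135 to 195 days, where 9.53% were. A fit of the fetal and birth arrays alone called 2 of 8 from 60 to 135 days, losing PHKG1 (adjusted p = 0.0720) and GYS1 (adjusted p = 0.110). It called 957 of all 14644 genes at this step, in either direction. From 195 days to birth 6 rose and 1 fell, with 32.0% of all genes called higher and 29.5% lower. From birth to 3 months 3 rose (PYGM, PHKA1 and PPP1R3C) and 1 fell (GBE1), with 21.5% of all genes higher and 17.6% lower. GYS1 was not called at this step as the mean of both probes (−0.08, adjusted p = 0.501), but its probes went apart. The dim one differed by −0.40 (adjusted p = 0.00121) and the bright one by 0.24 (adjusted p = 0.178). Without the array of the animal that stood apart, 4 and 6 genes again rose at both fetal steps, and PYGM differed by 2.90 and 2.03 instead of 2.42 and 2.51. Without that array PGM1 differed by 2.75 and 0.94, PHKG1 by 1.52 and 1.21, and GYS1 by 0.71 and 0.66. From 135 to 195 days PHKA1 then differed by 0.61 and PPP1R3C by 1.79. The arrays of birth and of 3 months lay on different slides. With arrays scaled by their medians alone, the number of the 8 genes called was 0 from 60 to 135 days, 1 from 135 to 195 days and 0 from birth to 3 months.

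After 3 months the levels changed less. Between 3 and 30 months PHKG1 fell by 1.00 ± 0.17 (adjusted p = 4.03e-05) and PHKA1 by 0.76 ± 0.10 (adjusted p = 3.13e-06), while GBE1 rose by 0.75 ± 0.15 (adjusted p = 3.81e-04). That is 1 gene of 8 higher and 2 lower, with 13.2% of all genes called higher and 16.5% lower. An F test over the 6 post-natal ages was passed by 6 of the 8 genes and by 49.0% of all genes. PYGM (adjusted p = 0.228) and PGM1 (adjusted p = 0.517) did not pass it. Between 3 and 30 months a further gene was called when 1 array was left out. It was PYGM (−0.55, adjusted p = 0.0438) without replicate 1 at 30 months and PPP1R3C (−0.51, adjusted p = 0.0343) without replicate 3 at 30 months. PYGM (−0.46, adjusted p = 0.0587 in the main fit) was also called under several alternatives that kept these arrays. Among them were post-natal arrays only (adjusted p = 0.00507) and animals as units (adjusted p = 0.0477). With post-natal arrays only PYGM also passed the F test (adjusted p = 0.0203). That fit called 4510 of all 14644 genes in the contrast and 7242 in the F test. With arrays scaled by their medians alone none of the 8 was called here, in the contrast or in the F test.

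GBE1 had the widest range over these ages, 1.55 on the log2 scale. Its array means ran from 10.16 ± 0.13 at 7 months over 10.48 ± 0.20 at 3 months, 10.86 ± 0.10 at 12 months, 11.04 ± 0.12 at 20 months and 11.23 ± 0.21 at 30 months to 11.71 ± 0.32 at 25 months (SD, n = 4 arrays). The arrays of neighbouring ages in this order overlapped in range except between 3 and 12 months and between 30 and 25 months. PPP1R3C ranged over 1.34 and was lowest at 30 months (13.59 ± 0.54) and highest at 25 months (14.93 ± 0.13), with 20 months at 14.81 ± 0.12 not separated from the latter. Adjacent ages in these orders were not tested. GYS1 and UGP2 passed the F test narrowly, at adjusted p of 0.0251 and 0.0377. GYS1 no longer passed it without replicate 2, 3 or 4 at 12 months (adjusted p of 0.0578 to 0.0740), and UGP2 no longer passed it without replicate 1 or 4 at 12 months or without any 1 of the 4 arrays at 30 months (adjusted p of 0.0507 to 0.204). The slides of the 25 and 30 month arrays were not those of the younger ages.

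A wider list of 30 glycogen genes shows which forms of the same enzymes moved. Of these, 26 were on the array and 24 were tested; 18 were higher and 4 lower after birth than before, against 39.2% and 36.9% of all genes, and their median difference was 1.32. The forms of phosphorylase and of phosphorylase kinase that are known from other tissues did not follow the muscle forms. PYGB, the brain phosphorylase, fell by 1.91 (adjusted p = 7.29e-19), with array means of 12.12 at 60 days, 12.48 at 195 days and 9.90 at birth. PHKG2, the gamma subunit known from liver and testis, fell by 2.06 (adjusted p = 1.24e-19) and went down at every step from 13.41 at 60 days to 10.92 at 3 months. PHKA2, the alpha subunit known from liver, fell by 0.22 (adjusted p = 0.00906), but its array means over development lay at only 7.37 to 7.85. That is near the level of the dim GYS1 probe, where changes are understated. PYGL, the liver phosphorylase, differed by 0.06 (adjusted p = 0.612). PHKB, the beta subunit of phosphorylase kinase, rose by 3.45 (adjusted p = 3.80e-24).

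PPP1R1A, known as protein phosphatase inhibitor 1, had the largest rise of the wider list, 4.64, followed by PHKB and by PPP1R3A, the muscle glycogen-targeting subunit of protein phosphatase 1, at 3.09. PGM2L1 rose by 2.44 and GYG1, glycogenin, the primer of glycogen synthesis, by 2.37. Also lower was PGM5 at −1.96, a relative of PGM1 that is known from adhesion sites and not as an active mutase. On a list of 17 genes of glucose supply and signalling kinases, 14 were tested, of which 8 were higher and 4 lower, beside the same 39.2% and 36.9% of all genes. The insulin-responsive transporter SLC2A4 rose by 3.37 and SLC2A1, the transporter of most fetal tissues, fell by 2.24 (adjusted p = 6.27e-14). PRKAA1 rose by 1.24, PRKAG3 by 0.54 and AKT2 by 0.52. HK1 fell by 0.97, PRKACA by 0.68 and PRKAG2 by 0.46.

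Markers of tissue make-up moved with age too. Of the skeletal muscle markers 5 of 6 were higher after birth and 0 lower, and all 4 adipocyte markers tested (ADIPOQ, FABP4, PLIN1 and CIDEC) were higher. All 5 connective tissue markers were lower, with a median difference of −2.86, as were all 4 markers of embryonic and fetal muscle (MYH3, MYH8, MYL4 and CHRNG), at a median of −7.17, and all 4 blood markers, at −4.53. All 4 fast fibre markers and all 5 slow fibre markers tested were higher. Of the endothelium markers 1 was higher and 2 lower, and of the leukocyte markers 2 were higher. The part of these shifts in the changes of the 8 genes was not tested.

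The crosses were compared within arrays, as Piedmontese minus Wagyu. None of the 8 genes passed the adjusted threshold between crosses in the fetal ages, at birth or after birth. In the limma fits 0 of 8 were called in each period, against 1.93% of all genes in the fetal ages, 6.56% at birth and 0.246% after birth; at an unadjusted p under 0.05 there were 0, 1 and 1 of the 8. The difference between the post-natal and fetal cross effects was called for 0 of 8 genes (0 at an unadjusted p under 0.05) and for 1.31% of all genes.

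The gene behind both unadjusted values was PHKA1. Its log2 ratio was above 0 in 2 of 3 arrays at birth, at −0.04, 0.93 and 1.04, with a fitted difference of 0.65 ± 0.23 (SE, adjusted p = 0.0811). In the 24 post-natal arrays it ran from −0.11 to 1.06 with a median of 0.26 and was above 0 in 21. The fitted difference was 0.37 ± 0.11, with a 95% confidence interval of 0.15 to 0.60 and an adjusted p of 0.186. The same 0.37 passed the threshold with no block (adjusted p = 0.00339), with slide as a random block (adjusted p = 0.00359) and with developmental arrays only (adjusted p = 0.0163), and with the last of these PHKA1 was also called at birth (0.68, adjusted p = 0.0138). Animals recur among these arrays, so their signs are not independent. Without replicate 1 at birth, the difference there was 0.98 (adjusted p = 0.0352).

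For the other 7 genes the post-natal differences lay between −0.26 (GBE1) and 0.19 (PHKG1). Their confidence intervals bound the difference to at most 0.69 on the log2 scale in either direction, with PPP1R3C having the widest, −0.69 to 0.24. In the fetal ages the PYGM ratio was lowest, at −3.43, on the array of the 135-day animal that stood apart, and the fitted fetal difference of PYGM was −0.39 with that array and −0.03 without it. No member was called without it either. On the list of glucose supply and kinase genes, SLC2A1 (1.19, adjusted p = 0.00527) and INSR, the insulin receptor (0.59, adjusted p = 0.0272), were higher in the Piedmontese cross at birth. On the wider glycogen list 0 of 24 genes were called in any of these periods.

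**Figure D3:**
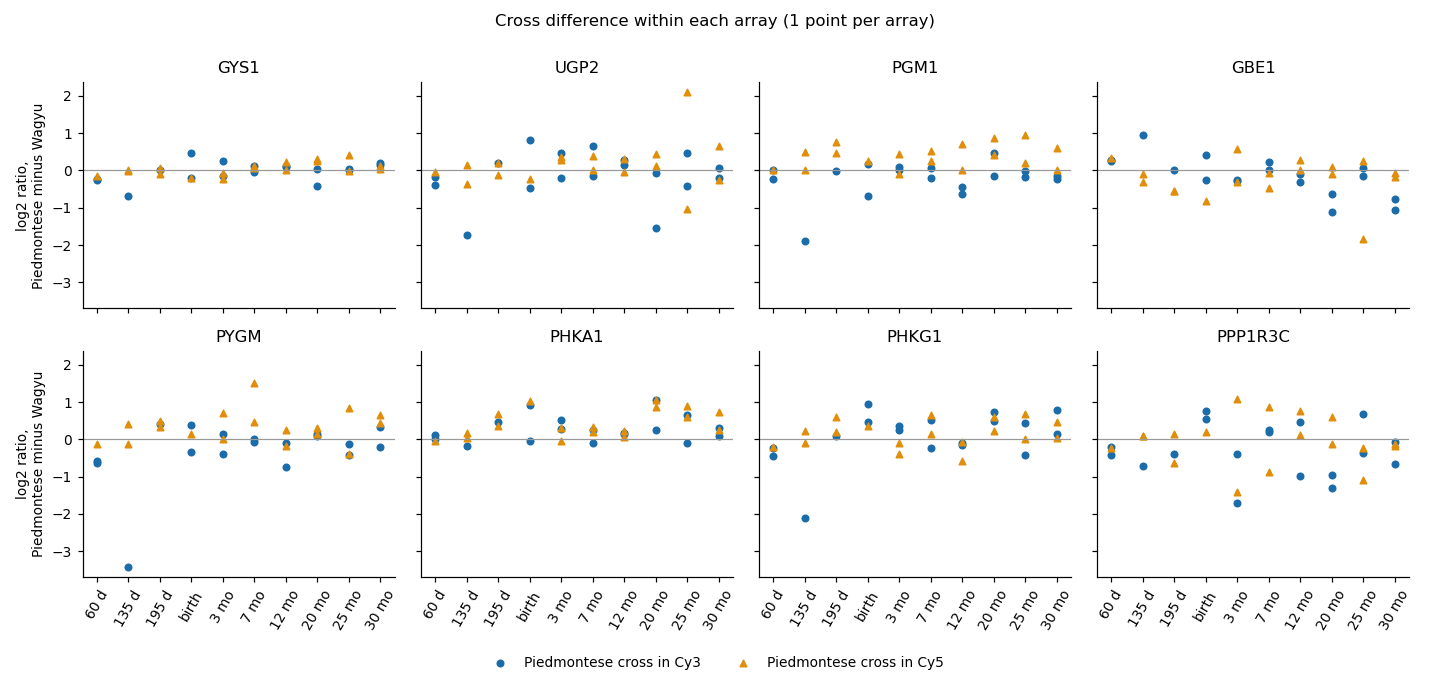
Log2 ratio of the Piedmontese over the Wagyu cross on each of the 36 developmental arrays for the 8 genes, by time; symbols show which dye the Piedmontese cross had, and values are before removal of the dye effect. The PHKA1 ratios lie above 0 on 21 of the 24 post-natal arrays, and the lowest PYGM ratio, −3.43, belongs to the 135-day animal that stood apart.

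The diet comparison asked how muscle of animals on a weight loss diet differed from that of animals on a growth diet, also within arrays. At time 0 GYS1 was lower in the weight loss arm, with log2 ratios of −0.36, −0.76, −0.26 and −0.58 on the 4 arrays and a fitted difference of −0.49 ± 0.13 (adjusted p = 0.00797). Both GYS1 probes were called at time 0, at −0.66 and −0.32. It was the 1 member of 8 called, where 7.02% of all genes were called lower. Without replicate 2 the GYS1 difference was −0.38 (adjusted p = 0.0980), and without replicate 1 PPP1R3C was called too, at −1.49 (adjusted p = 0.0171). A fit of the diet arrays alone called 0 of 8 and 293 of all 14644 genes.

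At time 1, 5 of the 8 genes were lower in the weight loss arm and none was higher, where 16.4% of all genes were called lower and 16.1% higher. The 5 were PHKA1, PPP1R3C, PYGM, PGM1 and PHKG1. Over all genes tested, the ratios on the 4 arrays of time 1 were all negative for 22.0% and all positive for 20.2%. The share of all genes without overlap between the animals of the arms was not counted. The log2 ratios of PHKA1 on the 4 arrays were −2.80, −1.89, −1.59 and −3.01, and its fitted difference was −2.49 ± 0.23, which is 5.63-fold lower (adjusted p = 1.65e-09). By animal, PHKA1 was at 12.74, 13.45 and 13.67 on the weight loss diet and at 15.28, 15.53, 15.74 and 16.24 on the growth diet, so the arms did not overlap. PYGM ratios were −1.75, −1.23, −0.92 and −1.34, with a fitted difference of −1.48 ± 0.35 (adjusted p = 0.00151). The 3 weight loss animals had PYGM values of 15.62, 15.74 and 15.85, below the 16.39, 16.66, 17.24 and 17.88 of the growth animals.

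PGM1 ratios were −1.39, −0.76, −1.27 and −1.51, with a fitted difference of −1.39 ± 0.26 (adjusted p = 1.03e-04), again with no overlap between the arms, which lay at 16.15 to 16.55 and at 17.15 to 17.97. PPP1R3C ratios were −2.04, −1.12, −1.30 and −2.82, with a fitted difference of −2.01 ± 0.47 (adjusted p = 0.00128). Its weight loss animals were at 11.60, 11.63 and 13.73 and its growth animals at 13.73, 14.47, 14.83 and 14.94, so the highest of the one arm reached the lowest of the other. PHKG1 differed by −0.92 ± 0.31 (adjusted p = 0.0228), from ratios of −1.77, −0.43, −0.46 and −0.59. Its call rested on single arrays: without replicate 1 the difference was −0.55 (adjusted p = 0.321) and without replicate 4 it was −1.01 (adjusted p = 0.0525). A fit of the diet arrays alone called 3 of the 8 genes at time 1, losing PHKG1 and PPP1R3C, and 1677 of all 14644 genes.

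The 3 remaining genes were not called at time 1. They belong to synthesis, but so does PGM1, and PPP1R3C targets the phosphatase that favours synthesis, and these were lower. GBE1 differed by 0.41 (95% confidence interval −0.19 to 1.00), GYS1 by −0.21 (−0.51 to 0.09) and UGP2 by 0.76 (−0.09 to 1.61) at time 1. The UGP2 ratios were 1.31, 0.99 and 1.31 on 3 arrays and −0.16 on replicate 4; without that array the difference was 1.31 (adjusted p = 0.0457). The 2 GYS1 probes went apart here, at −0.59 (adjusted p = 0.0550) for the bright one and 0.17 (adjusted p = 0.177) for the dim one.

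**Figure D4:**
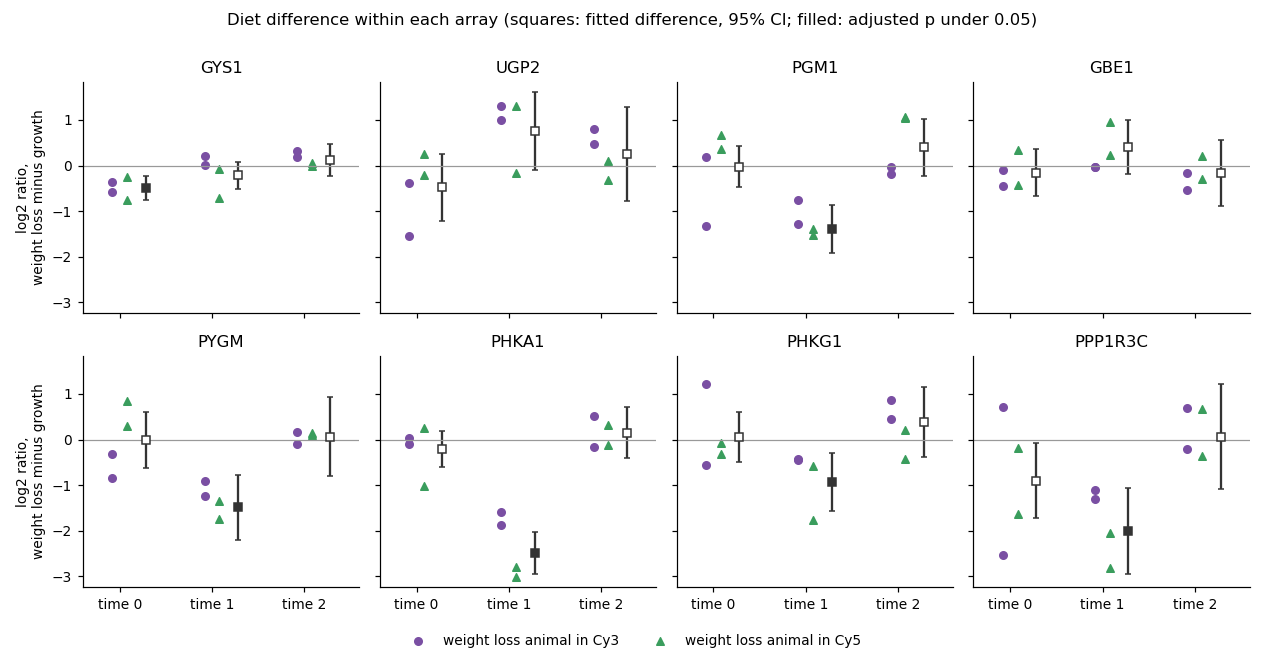
Log2 ratio of weight loss over growth diet on each of the 12 diet arrays for the 8 genes (points, shaped by the dye of the weight loss animal, before removal of the dye effect), with the fitted difference (arrays of 1 weight loss animal averaged) and its 95% confidence interval as squares, filled where the adjusted p was under 0.05. At time 1 the PHKA1 points lie between −3.01 and −1.59, and at time 2 they lie around 0.

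At time 2 none of the 8 genes was called (0 also at an unadjusted p under 0.05), where 0.219% of all genes were. The arms held 2 animals each and the confidence intervals were wide, from −0.41 to 0.71 for PHKA1 and from −0.80 to 0.93 for PYGM. Each weight loss animal was set against the same 2 growth animals, so their ratios are not independent, which the fit did not take into account. The 2 weight loss animals measured at all 3 times give the course by animal. PHKA1 was at 15.26, 13.45 and 15.26 at times 0, 1 and 2 in the first of them and at 14.72, 13.67 and 15.01 in the other. In the 2 growth animals measured at all 3 times it was at 15.37, 16.24 and 15.28 and at 14.86, 15.74 and 14.73. PPP1R3C was at 14.73, 11.63 and 14.08 in the first weight loss animal and at 13.88, 13.73 and 13.84 in the other. Only the first was thus clearly lower at time 1 than at its own other times. The PPP1R3C ratios to the growth animals at time 1 were nonetheless negative on every array, also on those of the other animal. PHKA1 was lower at time 1 than at times 0 and 2 in both weight loss animals and higher in both growth animals. Each diet time lay on a slide of its own, so changes in time within an arm cannot be told apart from slide; the ratio between arms is free of this.

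The difference between the diet ratios at time 1 and time 0 was itself tested. It was called for 3 of 8 genes, all with a lower ratio at time 1 (13.4% of all genes). A fit of the diet arrays alone called 1 of 8, losing PYGM (adjusted p = 0.0541) and PGM1 (adjusted p = 0.0910), and 798 of all 14644 genes. PHKA1 differed by −2.28 ± 0.27 (adjusted p = 9.19e-07), PYGM by −1.47 ± 0.42 (adjusted p = 0.0105) and PGM1 by −1.37 ± 0.31 (adjusted p = 0.00162). For PPP1R3C it was −1.10 ± 0.56 (adjusted p = 0.15), and for PHKG1 −0.99 ± 0.38 (adjusted p = 0.0523). PYGM was not called without replicate 2 at time 0 (adjusted p = 0.0507) or without replicate 1 at time 1 (adjusted p = 0.0898). Without replicate 4 at time 1 UGP2 (1.78, adjusted p = 0.0196) and GYS1 (0.52, adjusted p = 0.0422) were called as well. With all arrays the dim GYS1 probe, near background, differed by 0.49 (adjusted p = 0.00183) and the bright one by 0.07 (adjusted p = 0.880). UGP2 was also called without replicate 3 at time 0 (1.41, adjusted p = 0.0484). Without replicate 1 at time 0 PHKG1 was called (−1.19, adjusted p = 0.0344), and without replicate 4 at time 0 PPP1R3C was (−1.60, adjusted p = 0.0406).

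Of the 24 genes tested on the wider glycogen list 8 were lower and 1 higher in the weight loss arm at time 1, with a median difference of −0.16, where 16.4% of all genes were lower and 16.1% higher. A fit of the diet arrays alone called 4 of the 24, and the deposited log ratio called 5. Of all 14644 genes they called 1677 and 3865. PHKB, the beta subunit of phosphorylase kinase, differed by −1.51 (adjusted p = 2.20e-06), PPP1CB, a catalytic subunit of protein phosphatase 1, by −1.16 and GYG1 by −1.15. PYGL differed by −0.60, EPM2A, the glycogen phosphatase laforin, by −0.54, PPP1R1A by −0.53 and PPP1R2 by −0.35 (adjusted p = 0.0461). PHKG2, which was lower after birth, was the 1 gene that was higher on the weight loss diet, by 0.61 (adjusted p = 5.45e-05). SLC2A1 was higher by 1.15 (adjusted p = 8.11e-04) as the 1 gene of 14 called on the glucose supply and kinase list. In the difference between times 1 and 0, 8 genes of the wider list had a lower ratio at time 1 and 1 a higher one. The lower ones were STBD1, a glycogen-binding protein (−1.91), PHKB (−1.61), PGM2L1 (−1.17), PPP1CB (−1.01), GYG1 (−0.79), PPP1R1A (−0.76), EPM2A (−0.53) and PPP1R2 (−0.49), and the higher one PHKG2 (0.53). On the glucose supply and kinase list 3 were higher and 1 lower, among them SLC2A1 (1.63), SLC2A4 (1.61) and PRKAG3 (−0.42). At time 0, NHLRC1, the ubiquitin ligase malin, was higher in the weight loss arm by 0.66 (adjusted p = 0.0220), and SLC2A4 was lower, at −1.13 (adjusted p = 0.00390).

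Broader markers moved at time 1 as well. Of the 6 skeletal muscle markers 5 were lower, ACTA1 by −6.36, MB by −2.78 and CKM by −1.75 among them, and DES was higher by 1.45. Their mean level was between 15.29 and 15.38 in the weight loss animals and between 16.74 and 17.92 in the growth animals. All 5 connective tissue markers were lower, with a median of −4.12, as were 3 of 4 fast fibre markers, 3 of 5 slow fibre markers, 2 of 3 endothelium markers, 1 of 3 leukocyte markers and 1 of 4 adipocyte markers. No blood marker and no embryonic or fetal muscle marker was called. At time 0, when GYS1 was lower, the leukocyte markers PTPRC (0.74) and CD3E (0.57) were higher in the weight loss arm and the endothelium marker VWF was lower (−0.52), and no marker of the other lists was called. The part of these shifts in the differences of the 8 genes was not tested.

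**Figure D5:**
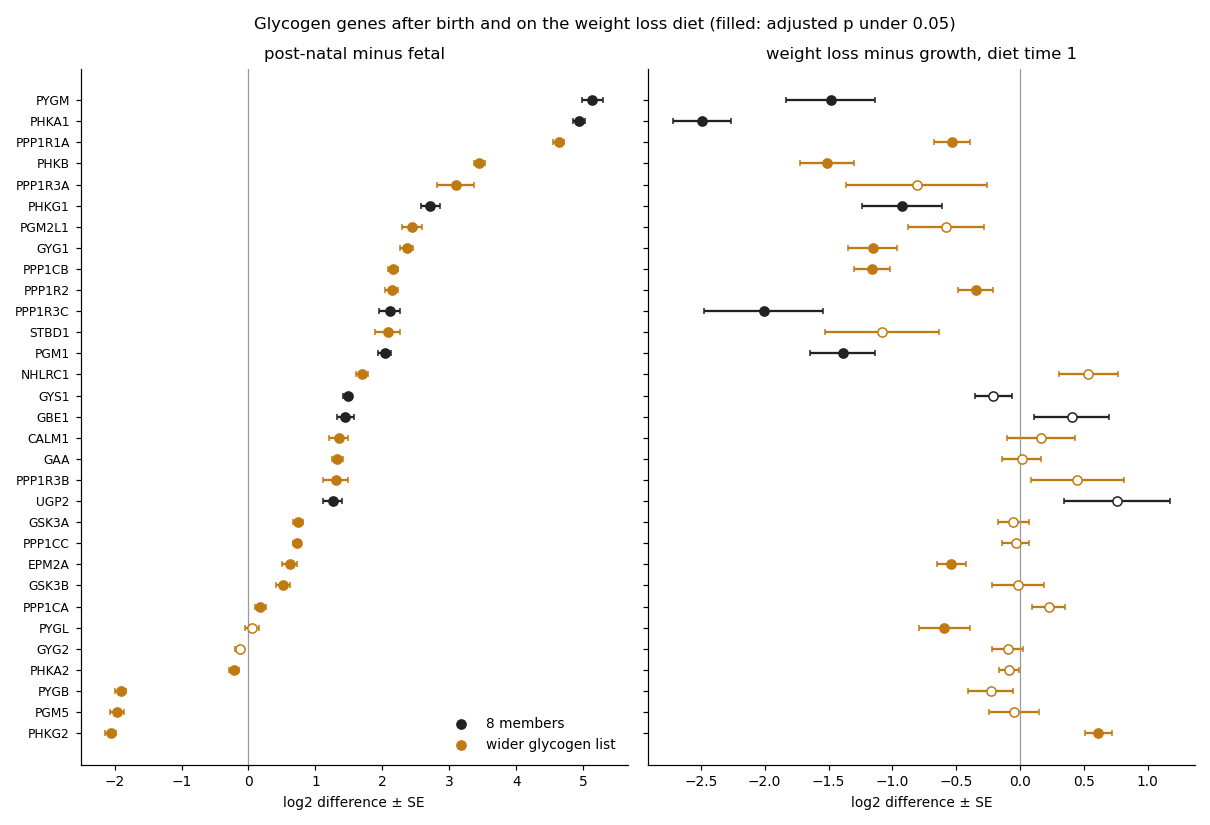
Log2 difference ± SE of the 8 genes (black) and of further glycogen genes (orange), post-natal minus fetal on the left and weight loss minus growth at time 1 on the right; filled points passed an adjusted p of 0.05. PYGM and PHKA1 stand at the top on the left, PYGB, PGM5 and PHKG2 at the bottom, and PHKA1 has the lowest value on the right.

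Over the means of all 26 conditions, PYGM, PHKG1 and GYS1 followed each other most closely, with Pearson correlations of 0.97 for each of the 3 pairs. GBE1 and PPP1R3C were the least alike, at 0.39. Over the 12 post-natal developmental conditions alone PYGM and PHKG1 correlated at 0.72, PHKG1 and GYS1 at 0.48, PYGM and GYS1 at −0.05, PHKA1 and PHKG1 at 0.81, and PHKG1 and GBE1 at −0.78. Conditions share arrays and animals, so these values are a description with no test.

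Among all other genes, those most like PYGM over the 26 conditions were TMOD4 (0.99) and KCNJ12 (0.99). PHKA1 was most like an expressed sequence tag with no gene name (0.99) and PDE4C (0.99), PHKG1 most like MYOM2 (0.97) and BLOC1S1 (0.97), GYS1 most like CNKSR1 and FAF1 (0.98 each) and PGM1 most like KIAA1639 and ATP2A1 (0.98 each). PPP1R3C was most like PAK1 (0.93) and ASB15 (0.92), and UGP2 most like LOC616499 (0.95) and WIPI1 (0.94). GBE1 was most like its own further probe (0.96), and then LETM1 (0.93) and another unnamed tag (0.93).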

How the data were processed

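The authors amplified, labelled and hybridised the RNA, and the labels name Agilent Feature Extraction 9.5.1. For each spot they deposited the mean intensity and local background intensity of each channel, flags, and a log10 ratio of Cy5 over Cy3 that Feature Extraction had normalised within the array. The deposited flags and other spot annotations were used to leave out outliers. The deposited table of the whole series repeats these log10 ratios (checked on 1 array) and was not used. The condition means that the authors made with a mixed model were not used here.

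Intensities were corrected by normexp with an offset of 50, then normalised by loess within and Aquantile between 48 arrays with limma 3.58.1 in R 4.3.3. Control and outlier spots were left out and spots of a probe averaged. The offset understates changes of dim probes. A probe was kept if well above background in at least 24 of 96 channels (15822 of 21475 probes, 14644 genes, a gene being the mean of its probes). Of the probes 16711 were named through the RefSeq table of ARS-UCD2.0; no genome coordinates are given, because the files name no build.

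Times were compared on array means of both channels (34 units) and crosses and diets on within-array log2 ratios with a dye term (43 units), by lmFit and eBayes, two-sided, with the animal pair or the weight loss animal as random block (correlation 0.234 and 0.186) and Benjamini-Hochberg adjustment over all genes at 0.05. Arrays that repeat an animal pair or a weight loss animal at 1 time were averaged. The p-values measure the spread between these animals and arrays, whose number limits the precision. The fits were tested on simulated data. Genes named were the 8 members; on both further lists, the called genes with the 5 largest rises and 5 largest falls after birth and those called in a cross or diet comparison, apart from genes not reported here; and the 2 genes most like each member. Marker genes were named after their values were seen. The members and lists were chosen with earlier results of these data known. Alternatives covered background, filter, probe choice, scaling, block, units and each array left out; 2 on single probes were added after seeing the data.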

Additional observations from a re-analysis of the deposited data

Results flagged for a closer look

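The array means of each gene were screened for a single far sample in the groups of 4 arrays, 72 tests in which chance alone marks about 1 in 20. A far sample was found in 2. The PHKG1 mean of diet time 0, replicate 4, was 10.4, below the 11.7 of the other 3 arrays; on it the growth animal was at 9.86 and the weight loss animal at 11.03. The UGP2 mean of 7 months, replicate 3, was 13.9, against 14.1 to 14.2 on the others.

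The diet ratio differed between times 1 and 0 by the test of that difference for PHKA1 (−2.28), PYGM (−1.47) and PGM1 (−1.37); with diet arrays alone only PHKA1 was called. By array, the time 0 ratios of PHKA1 were −0.11, −1.02, 0.26 and 0.02, so the largest of them in size came short of the smallest at time 1, −1.59.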

How the results depend on the processing

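Of 701 alternative values for the 47 called differences of the 8 genes, 652 stayed on the same side of the threshold, 49 were not called and 0 reversed. Of 212 counts, 197 stayed within 1.5 times. The 701 values leave out differences that only an alternative called, such as PYGM from 3 to 30 months. With every array as 1 unit UGP2 was called at diet time 1 (0.90, adjusted p = 0.0473). Between times 1 and 0, UGP2 was called with animals as units (1.26, adjusted p = 0.0311). GYS1 was called there with the deposited log ratio (1.00, adjusted p = 0.0170). Scaling arrays by their medians alone gave 0 members called from 60 to 135 days, 1 from 135 to 195 days, and 0 from birth to 3 months, from 3 to 30 months and in the F test. It also cut the calls over all genes, from 1859 to 227, 3045 to 225, 5732 to 520, 4361 to 406 and 7182 to 341, shifted the median of all genes to 0.14 after birth, 0.19 from 195 days to birth and 0.16 from 3 to 30 months, and changed the share of higher calls from 49.0% to 20.3%, 55.0% to 33.1% and 44.4% to 76.6% at 135 days, 3 months and 30 months. Fetal and birth arrays alone called 2 members from 60 to 135 days. PHKA1 was called between crosses, as 1 member, after birth with no block, with slide as a random block or with developmental arrays only, and at birth with developmental arrays only. Diet arrays alone called 0, 3 and 1 members at time 0, at time 1 and between them, and 4 genes of the wider list at time 1; the deposited log ratio called 5 of these. The deposited log ratio moved the share of higher calls from 60.2% to 46.8% for the cross at birth and from 62.5% to 83.3% for diet time 2. Leaving out 1 array gave 0 to 1 members for the cross at birth, 0 to 2 at diet time 0, 4 to 5 at time 1, 2 to 5 between times, 4 to 6 in the F test, 3 to 4 between 3 and 30 months, 6 to 8 of the wider list at time 1 and 21 to 23 of it after birth. The cause of these changes was not tested.

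Replicates that share a slide deviated together in 16 of 18 pairs before and at birth, 21 of 24 from 3 to 20 months and 4 of 8 at 25 and 30 months (correlation over 0.1). With slide as a replicate block, 4, 6 and 7 members were called at the steps up to birth. Of all 14644 genes 4429, 3503 and 9892 were called. This fit counted every array as 1 sample, so the 3 arrays of the same 2 animals at 60 days were not averaged. Its calls from 60 to 135 days therefore treat repeats as independent and do not isolate slide. Counting every array as 1 unit without a slide term called 3275 genes at that step, against 1859 in the main fit. In an F test of 3 to 20 months 5 members and 4835 of all genes were called, and UGP2 was not (adjusted p = 0.734). No other call changed. Unlike the main F test, the F test with the slide block left out 25 and 30 months. The post-natal UGP2 mean was highest at 30 months (14.67). The slide block and the change of ages therefore cannot be told apart for UGP2. Depth does not apply to arrays; the dim GYS1 probe, near background, limits that gene, and the 2 animals at 60 days and 2 per arm at diet time 2 limit those comparisons.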
